A study of Mus musculus with 9 samples.

Results

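The syndecans and glypicans are the cell-surface core proteins that carry heparan sulfate chains, and all 10 mouse genes of these families (Sdc1 to Sdc4 and Gpc1 to Gpc6) were found by symbol among the 32661 genes of the count tables. They were followed in single cells of the ventral midbrain, in wells chosen by their measured values. These were 2000 or more genes, no more than 50000 counts and a mitochondrial share of the counts under 15%, which kept 2035 of 3455 wells. Every cell came from the mouse line VGAT-Cre:Ai14:Pitx3-GFP, in which Cre driven by VGAT, the vesicular GABA transporter, switches on the red protein tdTomato, and a Pitx3 reporter makes dopamine neurons green. Cells were sorted into plates for SORT-seq, in which every well adds its own barcode to the mRNA of 1 cell, along with random bases that tell molecules apart (a UMI). VGAT plates held tdTomato+ cells at E16 (4 plates) or P0 (3 plates), and VGAT+Pitx3 plates held tdTomato+ GFP+ cells (1 plate at each stage). tdTomato records a history of VGAT, so it need not mean that the cell made VGAT when it was sorted. The labels do not say whether plates came from separate animals, so p-values measure only the spread between plates.

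The VGAT plates gave 1460 cells and the VGAT+Pitx3 plates 575, with 44 to 305 cells and 1435919 to 5408710 counts per plate, so that 3 counts stand for 0.555 to 2.09 CPM (counts scaled to a common total for each plate). No kept well was identical to another. Pitx3 itself was at 74.5 and 142 CPM on the VGAT+Pitx3 plates and at most at 0.370 CPM on the VGAT plates. The summed dopamine neuron markers (Th, Pitx3, Slc6a3, Slc18a2 and Ddc) were at 1874 and 2380 CPM against 21.2 to 53.8 CPM. Of the GABA neuron markers, Gad1 was at 9.86 and 14 CPM on the VGAT+Pitx3 plates against 798 to 1219 CPM on the VGAT plates, while Gad2 stayed high at 898 and 997 CPM and Slc32a1, which encodes VGAT, was at 216 and 272 CPM against 156 to 333 CPM. Slc17a6, a vesicular glutamate transporter, was at 102 and 197 CPM on the VGAT+Pitx3 plates and at 0 to 15 CPM on the VGAT plates. It thus moved with the sort, and its part in the differences between the sorts was not tested. Astrocyte and radial glia markers summed to 180 and 229 CPM on the VGAT+Pitx3 plates and to 43.2 to 413 CPM on the VGAT plates (median 56.8 CPM), and oligodendrocyte lineage markers to 23.7 and 35.1 CPM against 0 to 50.1 CPM (median 2.07 CPM). Both lists were thus higher on the VGAT+Pitx3 plates than on the median VGAT plate. Without cells with 3 or more non-neuronal marker genes the 5 members called between the sorts still passed, with Sdc2 at 3.31, Gpc3 at -4.15, Gpc4 at -3.20, Gpc5 at -1.74 and Gpc6 at 0.73 on the log2 scale. Endothelial markers summed to at most 7.60 CPM and microglia markers to at most 28.6 CPM on any plate. The names of the cells carry a second plate label that gives the other stage for 4 of the 9 plates (VGAT E16 replicates 3 and 4, VGAT P0 replicates 1 and 3), and the members' stage differences are therefore given with and without these plates.

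Heparan sulfate is a long sugar chain that binds growth factors, morphogens and axon guidance proteins, netrin-1 among them. Syndecans cross the membrane and end in a short cytoplasmic tail, whereas glypicans are held on the outer leaflet by a lipid (GPI) anchor and can be shed by enzymes that cut it. In developing brain these cores shape how far ligands such as FGF, Wnt and Hedgehog proteins travel and which receptors they reach, and some glypicans act across synapses.

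The feature that sets the syndecans apart is the tail. The last 99 coding bases of the 4 syndecan genes (GRCm38, GENCODE M21, sense strand, stop codon left out) are shown because their final 12 bases, in capitals, spell the end of the tail that binds PDZ proteins such as syntenin and Cask. These stretches lie at chr12:8791706-8791804 (plus strand) for Sdc1, chr15:33032439-33032537 (plus strand) for Sdc2, chr4:130822708-130822806 (plus strand) for Sdc3 and chr2:164426089-164426187 (minus strand) for Sdc4.
Sdc1: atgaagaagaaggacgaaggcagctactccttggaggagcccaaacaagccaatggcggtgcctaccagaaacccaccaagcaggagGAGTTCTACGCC
Sdc2: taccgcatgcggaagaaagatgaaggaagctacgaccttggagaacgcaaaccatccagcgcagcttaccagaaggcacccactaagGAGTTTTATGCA
Sdc3: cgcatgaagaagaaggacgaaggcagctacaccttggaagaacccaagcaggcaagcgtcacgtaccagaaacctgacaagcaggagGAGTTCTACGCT
Sdc4: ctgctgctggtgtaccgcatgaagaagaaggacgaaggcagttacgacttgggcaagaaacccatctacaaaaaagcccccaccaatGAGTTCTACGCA
Any pair of the genes had 9 to 11 of the 12 capital bases in common, whereas 32.3% to 57.6% of all 99 bases were the same at the same distance from the stop codon. The coding sequences span 198 codons in Sdc4, 202 in Sdc2, 311 in Sdc1 and 442 in Sdc3, the member with the longest outer domain of the 4.

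Levels were read from counts summed per plate. With introns counted, Gpc6 and Sdc3 stood above the other members on every VGAT plate. Gpc6 was at 459, 542, 599 and 564 CPM on the E16 plates and at 232, 330 and 241 CPM on the P0 plates. Sdc3, the syndecan of neurons and their axons, was at 317, 376, 290 and 289 CPM at E16 and at 395, 550 and 485 CPM at P0. Gpc5 and Gpc2 followed, and their ranges overlapped: Gpc5 reached 83.4 to 188 CPM and Gpc2 77.0 to 148 CPM over the 7 VGAT plates. Gpc1 (32.8 to 65.7 CPM) and Sdc2 (22.3 to 40.8 CPM) came next, again with overlapping ranges, then Sdc1 (10.2 to 39.7 CPM) and Gpc3 (10.5 to 25.4 CPM), and then Gpc4 at 4.73 to 9.37 CPM. Sdc4 had 9 counts in all 2035 cells, 5 on VGAT and 4 on VGAT+Pitx3 plates, and stood at or under the level of 3 counts on every plate. Reads were taken from the 3′ end of transcripts with introns included, so levels of different genes are not per length and their order is that of molecules counted.

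**Figure D1:**
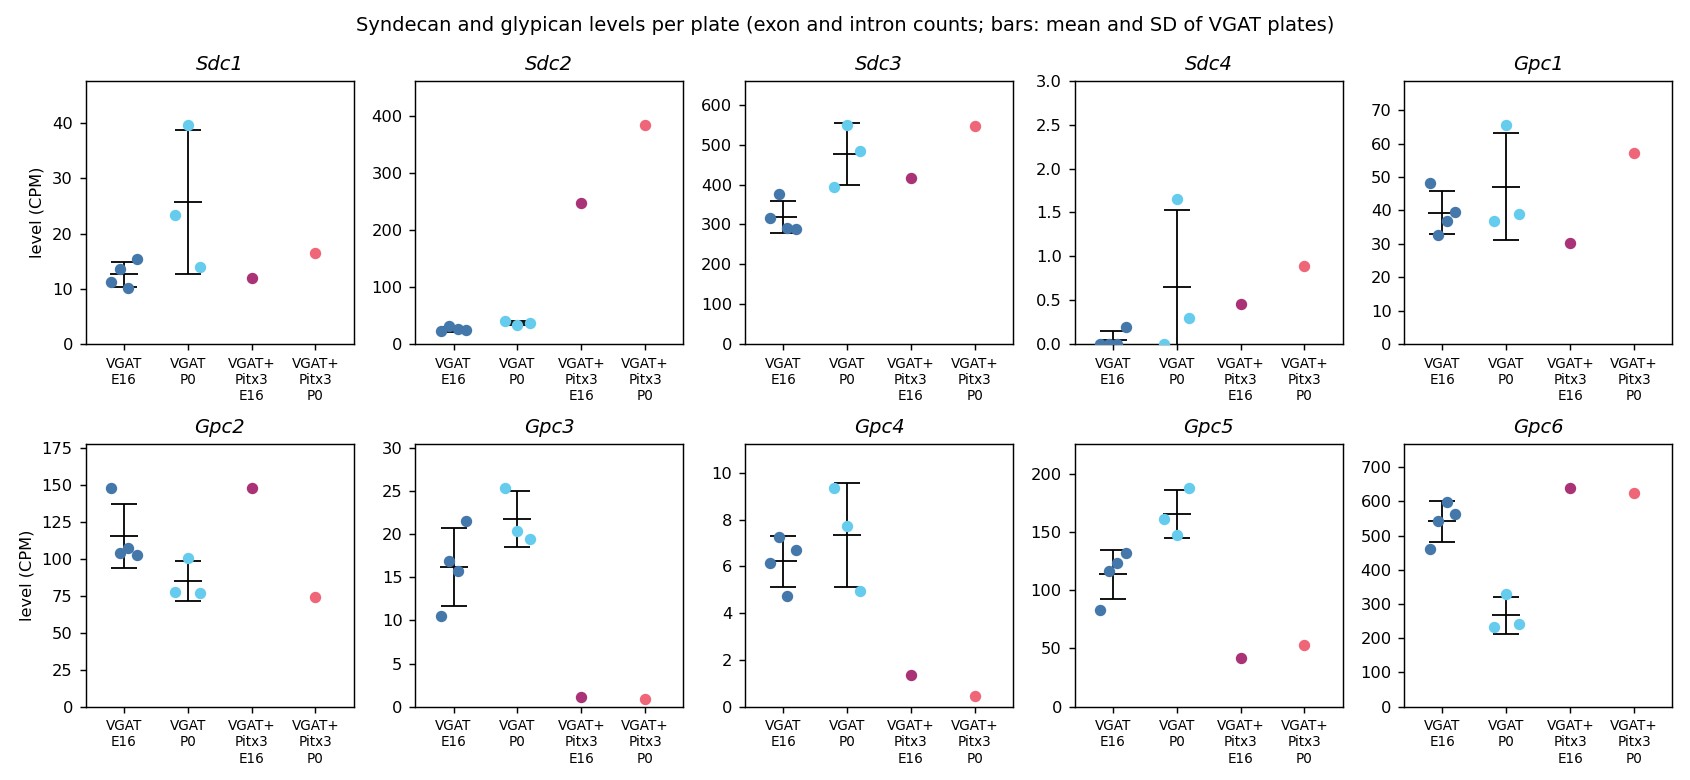
Level of each syndecan and glypican gene on each of the 9 plates, in TMM-scaled CPM of counts summed per plate, with 1 panel per gene, 1 point per plate and, for the VGAT groups, bars of the mean and SD. Sdc2 sits at 248 and 384 CPM on the VGAT+Pitx3 plates against 22.3 to 40.8 CPM on the VGAT plates, and Gpc3 and Gpc4 lie lower on the VGAT+Pitx3 plates.

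How much of each gene was read from exons differed widely. Of the counts over all plates, 100% were spliced for Sdc1, Sdc4 and Gpc2, 99.4% for Sdc3, 94.2% for Gpc1 and 69.1% for Sdc2. Gpc4 (44.6%) and Gpc3 (42.9%) were read about as often from introns as from exons. Only 5.29% of Gpc6 counts and 3.02% of Gpc5 counts were spliced, in genes that span 1051 kb and 1433 kb, against 6.35 kb for Gpc2. The levels of Gpc5 and Gpc6 are therefore mostly those of unspliced RNA, and so are their places among the members. Over all plates Gpc6 had 890 spliced counts, under Sdc3 (12576), Gpc2 (3636), Sdc2 (1883) and Gpc1 (1262), and Gpc5 had 113. Values of Gpc5 and Gpc6 in spliced counts are given for some comparisons only. Gpc2 has a further limit: it overlaps Gm43720 on the same strand, and 1453 of the 1461 cells with a count of either gene (99.5%) held equal counts of both, within 0.001. A Gpc2 value can therefore not be separated from that of Gm43720. Gpc1 overlaps 4 genes with 403 counts in all, 3 of them on the opposite strand, and the sources used here do not state whether counting used the strand.

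**Figure D2:**
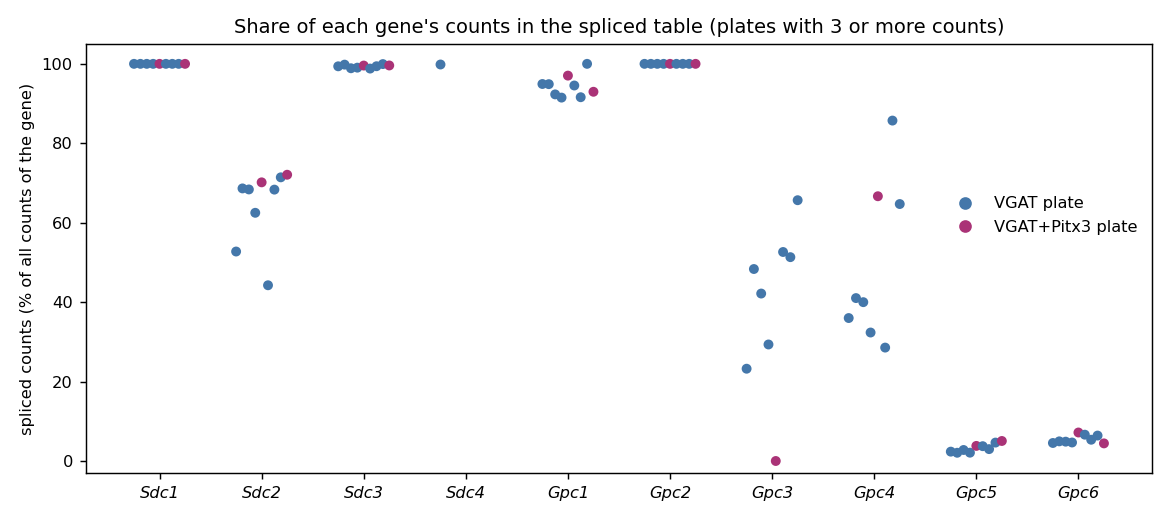
Spliced share of the counts of each gene in percent, 1 point per plate with 3 or more counts of the gene and colours for the sort. Gpc5 and Gpc6, which span 1433 and 1051 kb, have 3.02% and 5.29% of their counts spliced over all plates.

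Cells differed in how many members they held. After each cell was thinned to 4000 counts, which left out 79 cells, Sdc3 was detected in 74.0% ± 9.02 of VGAT cells (mean ± SD over plates, n = 7), Gpc6 in 51.3% ± 8.90 and Gpc2 in 34.5% ± 6.50. Gpc5 (18.9% ± 4.16), Gpc1 (16.5% ± 5.12) and Sdc2 (10.5% ± 2.22) were found in fewer cells, and Sdc1 (6.72% ± 4.06), Gpc3 (4.86% ± 1.77) and Gpc4 (2.44% ± 1.44) in few. Without thinning the shares of VGAT cells were 94.6% for Sdc3, 72.0% for Gpc6, 75.5% for Gpc2, 35.0% for Gpc5, 49.4% for Gpc1, 30.2% for Sdc2, 25.5% for Sdc1, 12.8% for Gpc3 and 6.92% for Gpc4. Sdc3 was thus found broadly and Gpc3 in a minority of cells. In spliced counts, thinned to 4000 per cell, Gpc6 was found in 9.48% and Gpc5 in 1.16% of VGAT cells (means over plates). Of all counts on the VGAT plates, the tenth of cells with the most (146 of 1460 cells) held 80.3% for Gpc5, found in 484 cells, 52.5% for Gpc6, found in 1061, and 29.1% for Sdc3. The highest single cell held 208 counts of Gpc6 and 127 of Gpc5.

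The first comparison asked which members differ between cells with a history of VGAT that were sorted with or without the Pitx3 reporter. The sorts also differ in dopamine neuron markers, Gad1 and Slc17a6, as given above. The VGAT+Pitx3 plates had 10.3 times as much Sdc2 as the VGAT plates and little Gpc3 and Gpc4, Gpc5 was 2.88 times lower, and Gpc6 was somewhat higher. Of 9 members with enough counts to test, 5 passed the threshold (edgeR quasi-likelihood test on plate sums with stage in the model, Benjamini-Hochberg adjusted p under 0.05 over all 14624 genes tested), 2 of them higher and 3 lower. Over all genes tested 8.93% passed, 4.73% higher and 4.2% lower on the VGAT+Pitx3 plates. The members were chosen with earlier results of these data known, so these shares are no test of the members as a set. The median log2 fold change was -0.052 over the 9 members and -0.000681 over all genes. In plate sums, fewer cells of a type and less RNA per cell cannot be told apart, so shares of cells are given beside the levels.

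Sdc2 (chr15:32920723-33034935, plus strand of GRCm38), a syndecan known for its part in the growth of dendritic spines, stood at 22.3, 31.5, 25.8 and 23.7 CPM on the VGAT E16 plates and 40.8, 33.1 and 36.6 CPM on the VGAT P0 plates. The VGAT+Pitx3 plates had 248 CPM at E16 and 384 CPM at P0. Both lay far above every VGAT plate (316 ± 96.3 CPM, SD, n = 2, against 30.5 ± 6.92, n = 7). The log2 fold change was 3.32 (SE 0.12, edgeR adjusted p = 2.93e-10), and it lay between 3.25 and 3.48 and passed the test in all 20 alternative settings. It was as large, 3.31, without cells with 3 or more non-neuronal marker genes. After thinning, 44.8% and 57.8% of VGAT+Pitx3 cells held Sdc2, against 10.5% ± 2.22 of VGAT cells.

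Gpc3 and Gpc4 were lower on the VGAT+Pitx3 plates. Gpc3, a glypican that binds Hedgehog and Wnt proteins and is mutated in an overgrowth syndrome, was at 10.5, 17.0, 15.7 and 21.5 CPM on the VGAT E16 plates and at 25.4, 20.4 and 19.5 CPM on the VGAT P0 plates, against 1.13 CPM (5 counts) and 0.892 CPM (2 counts) on the VGAT+Pitx3 plates. The mean was 18.4 times lower (log2 fold change -4.07, SE 0.42, edgeR adjusted p = 1.10e-05). Gpc4, a glypican released by astrocytes that promotes synapse formation and is also made by neurons, was at 4.73 to 9.37 CPM on the VGAT plates and at 1.35 CPM (6 counts) and 0.446 CPM (1 count) on the VGAT+Pitx3 plates (log2 fold change -2.63, SE 0.50, edgeR adjusted p = 0.00302). Neither gene's groups overlapped. After thinning, Gpc3 and Gpc4 were each found in 0.669% of VGAT+Pitx3 cells at E16 and in 0 of 249 cells at P0. For the cells of that plate alone, counting error allows a share of up to 1.47% with a count left after thinning (exact 95% binomial bound). Without thinning, Gpc3 was found in 1.64% and 0.738% and Gpc4 in 1.64% and 0.369% of VGAT+Pitx3 cells at E16 and P0. With 7 counts each on the VGAT+Pitx3 plates, the sizes of these folds are known only roughly. In spliced counts the fall of Gpc3 held, with no spliced count on the VGAT+Pitx3 plates, and that of Gpc4 missed the threshold (-1.94, adjusted p = 0.0801), the only one of its 20 alternatives to do so (lowest adjusted p = 5.17e-05).

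Gpc3 and Gpc4 lie side by side on the X chromosome (Gpc3 at chrX:52272426-52613950, Gpc4 at chrX:52053021-52165252, both on the minus strand of GRCm38), with 107 kb and no coding gene between them. Their promoters (250 bases before to 50 after the start, RefSeq, GRCm38.p6, minus strand, chrX:52613925-52614224 and chrX:52164874-52165173) are shown because these neighbours were lower on the same plates. Capitals mark the GC box, GGGCGG on either strand.
Gpc3: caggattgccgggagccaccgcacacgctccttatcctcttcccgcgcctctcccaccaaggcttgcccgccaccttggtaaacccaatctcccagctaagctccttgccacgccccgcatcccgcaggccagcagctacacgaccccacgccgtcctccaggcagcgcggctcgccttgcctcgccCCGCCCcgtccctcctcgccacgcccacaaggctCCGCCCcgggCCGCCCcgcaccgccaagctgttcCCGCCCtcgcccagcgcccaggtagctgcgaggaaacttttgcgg
Gpc4: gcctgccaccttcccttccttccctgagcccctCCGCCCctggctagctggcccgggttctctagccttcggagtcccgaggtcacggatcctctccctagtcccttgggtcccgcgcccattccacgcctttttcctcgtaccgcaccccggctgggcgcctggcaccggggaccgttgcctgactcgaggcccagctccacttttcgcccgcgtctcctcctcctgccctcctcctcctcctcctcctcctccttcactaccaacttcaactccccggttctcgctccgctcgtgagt
The Gpc3 window held 4 such matches and the Gpc4 window 1, and 35.9% of 32544 mouse promoter windows of this length held at least 1. The letters TAATCC, bound by Pitx and Otx factors (found in 7.06% of windows on either strand), and AGATAA, bound by factors such as Gata2 (11.2%), were in neither window. Of the 10 members 7 had a promoter in the table, and each of the 7 held the GC box at least once. These are matches of letters only.

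Gpc5 (chr14:115092215-116525179) fell and Gpc6 (chr14:116925315-117976544, both on the plus strand of GRCm38) rose. Gpc5 stood at 83.4, 117, 123 and 132 CPM on the VGAT E16 plates and at 161, 147 and 188 CPM on the VGAT P0 plates, against 41.4 and 53.1 CPM on the VGAT+Pitx3 plates. Every VGAT plate was above both (log2 fold change -1.54, SE 0.18, edgeR adjusted p = 4.25e-05). Gpc5 was found in 9.94% ± 1.28 of thinned VGAT+Pitx3 cells (SD, n = 2) and in 18.9% ± 4.16 of VGAT cells (n = 7). In spliced counts, of which Gpc5 has few, these shares were 0.424% and 1.16%. The difference in spliced counts was -1.01 on the log2 scale (edgeR adjusted p = 0.248), while the other 19 of 20 alternatives passed. Gpc6 was at 640 and 624 CPM on the VGAT+Pitx3 plates, just above the highest VGAT plate at 599 CPM (log2 fold change 0.75, SE 0.19, edgeR adjusted p = 0.0233). It was found in 67.6% ± 0.820 of thinned VGAT+Pitx3 cells (SD, n = 2) and in 51.3% ± 8.90 of VGAT cells (n = 7). The call on its level rested on single plates: it was lost without VGAT P0 replicate 1 (0.67, edgeR adjusted p = 0.0506), VGAT P0 replicate 3 (0.67, edgeR adjusted p = 0.0559) or the VGAT+Pitx3 P0 plate (0.23, edgeR adjusted p = 0.711, with the spread then taken from the VGAT plates), as well as with the stage of the second label, and was kept in 16 of 20 alternatives (adjusted p = 2.49e-05 to 0.711). Gpc5 and Gpc6 are neighbours, 400 kb apart with no coding gene between them, and went in opposite directions.

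The remaining members did not pass the test, which does not show that they were equal. Sdc3 was at 418 and 548 CPM on the VGAT+Pitx3 plates, within the range of the VGAT plates (log2 fold change 0.30, SE 0.14, edgeR adjusted p = 0.288). Gpc1, a glypican that binds Slit proteins, was at 30.4 and 57.1 CPM (-0.052, SE 0.22), Gpc2 at 148 and 74.0 CPM (0.13, SE 0.17) and Sdc1 at 11.9 and 16.5 CPM (-0.31, SE 0.32). For each of these 4 genes the plates of both sorts overlapped.

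**Figure D3:**
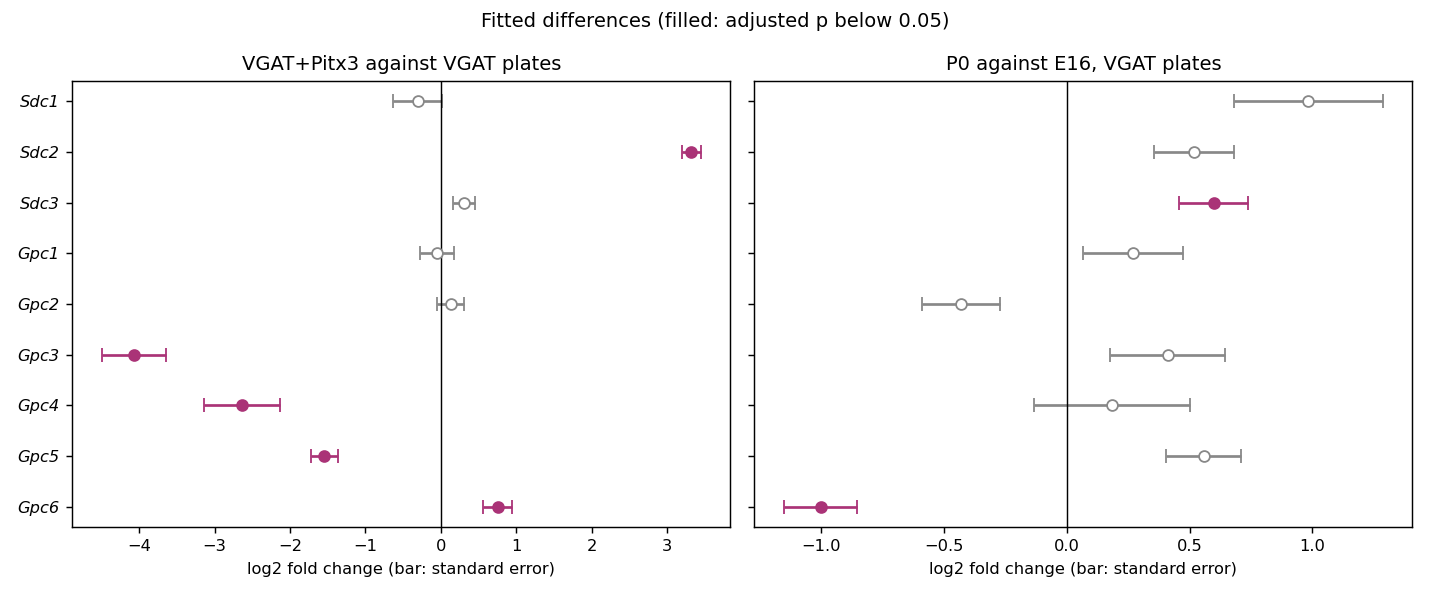
Log2 fold change of each tested member between VGAT+Pitx3 and VGAT plates and between P0 and E16 VGAT plates, with bars of 1 SE from the edgeR fit and filled points for adjusted p under 0.05. Sdc2 lies at 3.32 and Gpc3 at -4.07 between the sorts, and Gpc6 at -1.0 and Sdc3 at 0.60 between the stages.

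The enzymes that build and edit the chains were followed as a list of 34 genes, of which 30 were tested between the sorts. Of these, 10 passed, 5 higher and 5 lower on the VGAT+Pitx3 plates (median log2 fold change 0.16). Over all genes 8.93% passed, 4.73% higher and 4.2% lower (median -0.000681). This list and those that follow were written with earlier results of these data known. Their counts beside the share of all genes are therefore no test of enrichment. Higher were Sulf1, which strips 6-O-sulfates outside the cell (104 and 115 CPM against 7.11 to 38.1 CPM, log2 fold change 2.76, SE 0.30), and Ndst3, an N-deacetylase and N-sulfotransferase (both plates at 408 CPM against 62.9 to 151 CPM, 1.97, SE 0.24). Lower were the 3-O-sulfotransferases Hs3st2 (-4.2, SE 0.56), Hs3st4 (-2.23, SE 0.35) and Hs3st5 (-2.10, SE 0.26), and the 6-O-sulfotransferase Hs6st2 (-1.80, SE 0.28). Hs3st4, for example, was at 33.1 and 58.4 CPM on the VGAT+Pitx3 plates and at 115 to 326 CPM on the VGAT plates. Adjusted p-values of these genes were between 1.59e-05 and 5.55e-04 (edgeR).

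Among 9 other proteins that can carry heparan sulfate, 6 were tested and 3 passed, 2 higher and 1 lower, again beside 8.93% of all genes. The part-time proteoglycan Tgfbr3 (betaglycan) rose by 1.49 on the log2 scale (SE 0.33), the synaptic adhesion gene Nrxn3 by 1.25 (SE 0.14), and the semaphorin receptor Nrp1 fell by 1.89 (SE 0.26). Of 23 binding partners and release enzymes 20 were tested and 6 passed, 4 higher and 2 lower, beside the same share. Gpr158, a receptor of Gpc4 at synapses, was at 165 and 191 CPM against 56.4 to 101 CPM (log2 fold change 1.31, SE 0.13), whereas the glypican-binding synaptic protein Lrrtm4 was at 430 and 546 CPM against 773 to 1583 CPM (-1.11, SE 0.21). Of the LAR-type phosphatases, which bind heparan sulfate, Ptprs rose by 0.53 (SE 0.12) and Ptprd fell by 0.74 (SE 0.19), and the growth factor receptor Fgfr1 rose by 0.70 (SE 0.16) and Nxn, which binds Dishevelled, by 1.10 (SE 0.15). Only list genes whose plates did not overlap between the sorts are named here, so their lack of overlap is not a result.

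Within the VGAT+Pitx3 plates, Sdc2 was compared between cells over and under the median share of Slc6a3, the dopamine transporter, as a description without a test, since each stage has 1 plate. Levels here are plain CPM, without TMM factors. At E16 the Slc6a3-rich cells had 353 CPM of Sdc2 and the others 106 CPM, with 86.2% and 53.3% of cells positive. At P0 the values were 535 and 177 CPM, with 90.4% and 58.1% of cells positive. Both plates thus had about 3 times as much Sdc2 in Slc6a3-rich cells (3.33 and 3.02 times). Gpc6 differed less (632 against 600 CPM at E16, 694 against 488 CPM at P0). Gpc5 went opposite ways on the 2 plates, with 21 CPM in Slc6a3-rich and 61.9 CPM in Slc6a3-poor cells at E16 but 72.9 and 25.7 CPM at P0. The share of cells with Gpc5 was 19.7% and 19.1% at E16 and 20.7% and 13.2% at P0 of Slc6a3-rich and Slc6a3-poor cells, and the highest single cell held 22.1 counts of Gpc5 at E16 and 15 at P0.

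The next comparison asked what changed from E16 to P0 on the 7 VGAT plates. Sdc3 was higher and Gpc6 lower at P0, and these 2 of 9 tested members passed the test (edgeR, adjusted over 13639 genes), where 4.58% of all genes passed, 2.84% higher and 1.74% lower. A further 4 members had an unadjusted p under 0.05 only. The median log2 fold change of the 9 members was 0.41 against 0.0157 over all genes.

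Gpc6 was at 459 to 599 CPM on the 4 E16 plates and at 232, 330 and 241 CPM on the 3 P0 plates, with no overlap (log2 fold change -1.0, SE 0.15, edgeR adjusted p = 0.00887). Sdc3 (chr4:130792537-130826319, plus strand of GRCm38) was at 289 to 376 CPM at E16 and at 395, 550 and 485 CPM at P0, again with no overlap (0.60, SE 0.14, adjusted p = 0.0357). The call on Sdc3 was lost when VGAT E16 replicate 1, 3 or 4 or VGAT P0 replicate 2 or 3 was left out (edgeR adjusted p = 0.0768 to 0.113), and with the replicate number as a block (0.55, edgeR adjusted p = 0.0799), and it was kept in 11 of 18 alternatives, against 16 of 18 for Gpc6. Leaving out the 4 plates whose labels differ in stage leaves VGAT E16 replicates 1 and 2 against VGAT P0 replicate 2 alone, a lone plate that is assumed to vary like the others. In that fit Sdc3 was 0.67 higher at P0 (edgeR adjusted p = 0.0392), Gpc6 lower (-0.60, adjusted p = 0.0669) and Sdc1 1.67 higher (adjusted p = 0.00702), and no call is drawn from it. With the stage of the second label the Gpc6 difference turned to 0.43 (edgeR adjusted p = 0.875) and that of Sdc3 to -0.065, and 1 gene of 13639 passed in all, against 624. The stage results rest on the first label. The second label also adds a letter, which the sample labels do not explain: it is d on VGAT E16 replicate 4 and VGAT P0 replicate 3, where Pitx3 was at 0.196 and 0.299 CPM, and s on all other plates, both VGAT+Pitx3 plates included. Pitx3 thus went with the sort given by the first label, and the letter did not mark the plates with Pitx3.

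The other members were called in neither direction. Gpc5 was higher on each P0 plate than on any E16 plate (log2 fold change 0.56, SE 0.15, edgeR adjusted p = 0.0566, and 1.26 in spliced counts with adjusted p = 0.0681), as was Sdc2 (0.52, SE 0.16, adjusted p = 0.0830), and Gpc2 was lower on each P0 plate (-0.43, SE 0.16, adjusted p = 0.125). Sdc1 was at 10.2 to 15.4 CPM at E16 and at 23.4, 39.7 and 14 CPM at P0 (0.98, SE 0.30, adjusted p = 0.0771), with 1 P0 plate inside the E16 range. Gpc3 (0.41, SE 0.23), Gpc1 (0.27, SE 0.20) and Gpc4 (0.18, SE 0.32) overlapped between the stages. In the fit with 1 P0 plate left, Gpc5 was at 0.55, Sdc2 at 0.29, Gpc2 at -0.32, Gpc3 at 0.55, Gpc1 at 0.71 and Gpc4 at 0.20 on the log2 scale. The astrocyte and radial glia markers, summed, differed between the VGAT plates (median 56.8 CPM, highest 413 CPM). Leaving out cells with 3 or more non-neuronal marker genes took VGAT P0 replicate 2 from 219 to 198 cells, more than on any other VGAT plate. That plate is the 1 P0 plate left in the fit above. Without cells with 3 or more non-neuronal marker genes, Sdc3 was 0.61 higher and Gpc6 lower (-0.98) on the log2 scale at P0, both still past the threshold, and Gpc5 passed too (0.58, edgeR adjusted p = 0.0468). Of the pathway lists, 1 of 29 synthesis genes, 1 of 6 other cores and 1 of 19 partners passed, where 4.58% of all genes passed: B4galt7, which adds a linker galactose, rose (9.01 to 12.1 CPM at P0 against 3.79 to 5.39 CPM, 1.13, SE 0.28), and Nrxn3 and Gpr158 each fell by 0.52 (SE 0.12 and 0.14). With 1 P0 plate left, B4galt7 was at 1.28, Nrxn3 at -0.55 and Gpr158 at -0.32 on the log2 scale (edgeR adjusted p = 0.119, 0.113 and 0.309).

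Whether the stage difference differed between the sorts was tested with an interaction term over all 9 plates. No member passed with edgeR or DESeq2, and 1 of 9 had an unadjusted p under 0.05. Of all 15724 genes tested 0% passed with edgeR, with 998 genes at an unadjusted p under 0.05, and 3 genes passed with DESeq2. The member was Gpc6, which fell from E16 to P0 on the VGAT plates but was at 640 and 624 CPM on the VGAT+Pitx3 plates (difference of log2 fold changes 0.97, SE 0.30, edgeR adjusted p = 0.773). In spliced counts it was 0.064 (edgeR adjusted p = 0.997). Without the 4 plates whose labels differ in stage, which leaves 1 plate in each group but VGAT E16, it was 0.57 (edgeR adjusted p = 0.544). The VGAT+Pitx3 side of this comparison is 1 plate per stage, so the absence of a call does not show that the stages differed alike.

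Subtypes of GABA neurons were compared through transcription factors and markers used for them in the ventral midbrain (Six3, Pax5, Otx2, Nkx2-2, Dlx1 and Lamp5). On each VGAT plate the cells with at least 1 count of the gate gene were summed and set against the other cells of the same plate, with the plate as a block. The gates held 829, 389, 398, 532, 185 and 234 cells in this order and overlapped, so that 1 cell can be in several gates. The Six3 gate, with 829 of 1460 cells, held 65.3% of the Otx2, 59.2% of the Nkx2-2 and 49.4% of the Pax5 cells, which made up 31.4%, 38.0% and 23.2% of it. The Otx2 and Nkx2-2 gates shared 173 cells (43.5% of the first and 32.5% of the second). A cell with few counts is less likely to enter a gate, and gated cells had the higher median count on 7 of 7 plates for Six3, 6 for Pax5, 3 for Otx2, 7 for Nkx2-2, 2 of 5 for Dlx1 and 5 of 7 for Lamp5.

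Cells with Otx2, a homeodomain factor of the midbrain, had more Gpc3. The level with and without Otx2 was 19.0 and 6.07 CPM, 23.0 and 14.6 CPM, 35.2 and 9.27 CPM, and 40.0 and 14.2 CPM on the 4 E16 plates in order, and 46.0 and 14.9 CPM, 63.1 and 9.29 CPM, and 23.3 and 18.6 CPM on the P0 plates. Gpc3 was higher in the Otx2 cells on 7 of 7 plates (log2 fold change 1.41, SE 0.22, edgeR adjusted p = 6.08e-04) and passed the test in all 12 alternatives. Sdc2 was higher on 6 of 7 plates (0.53, SE 0.13, adjusted p = 0.0264), a call kept in 4 of 12 alternatives. These were 2 of 8 tested members, where 4.54% of all genes passed. Gpc4 had too few counts to be tested here. It was higher in the Otx2 cells on 6 of 7 plates, at 9.15 to 23.7 CPM against 3.09 to 5.69 CPM, and at 0 against 6.2 CPM on VGAT P0 replicate 3.

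Cells with Nkx2-2, a homeodomain factor of ventral progenitors and some of their neurons, had less Gpc3 and less Gpc6. For Gpc3 the level with and without Nkx2-2 was 6.48 and 13.6 CPM, 13.1 and 19.5 CPM, 9.76 and 19.5 CPM, and 11.1 and 33.2 CPM at E16, and 15.5 and 36.2 CPM, 11.9 and 24.4 CPM, and 14.6 and 21.5 CPM at P0. The Nkx2-2 cells were lower on 7 of 7 plates (log2 fold change -1.02, SE 0.17, edgeR adjusted p = 0.00228, called in 10 of 12 alternatives but not in spliced counts, with -0.68 and adjusted p = 0.236). Gpc6 was lower on 6 of 7 plates, at 165 to 459 CPM in the Nkx2-2 cells and 222 to 744 CPM in the others (-0.67, SE 0.12, adjusted p = 0.00466, called in 11 of 12 alternatives). VGAT P0 replicate 1, with 44 cells, was the exception at 256 against 222 CPM. Gpc5 (-0.48, SE 0.11, adjusted p = 0.0296) and Sdc2 (-0.52, SE 0.13, adjusted p = 0.0394) passed as well, each lower on 6 of 7 plates, and were called in 4 of 11 and 3 of 12 alternatives. These were 4 of 9 tested members, where 3.28% of all genes passed. Gpc3 thus went up with Otx2 and down with Nkx2-2, although the gates share cells.

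Cells with Pax5, a paired-box factor of the midbrain and hindbrain, had more Gpc6. The level with and without Pax5 was 545 and 445 CPM, 587 and 522 CPM, 840 and 414 CPM, and 835 and 432 CPM on the E16 plates, and 341 and 203 CPM, 455 and 297 CPM, and 310 and 232 CPM on the P0 plates. All 7 plates went the same way (log2 fold change 0.61, SE 0.10, edgeR adjusted p = 0.00134, called in 11 of 12 alternatives). Gpc6 was the only member of 9 tested to pass here, where 2.87% of all genes passed. No member passed between cells with and without Six3 (0 of 9, edgeR), Dlx1 (0 of 9, on 5 plates) or Lamp5 (0 of 8), where 0.790%, 0.917% and 0.856% of all genes passed. In each of these 3 gates 1 member had an unadjusted p under 0.05, and DESeq2 called no member. The Six3 gate also held 49.4% of the Pax5 cells, so its lack of calls need not hold for a narrower Six3 subtype.

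**Figure D4:**
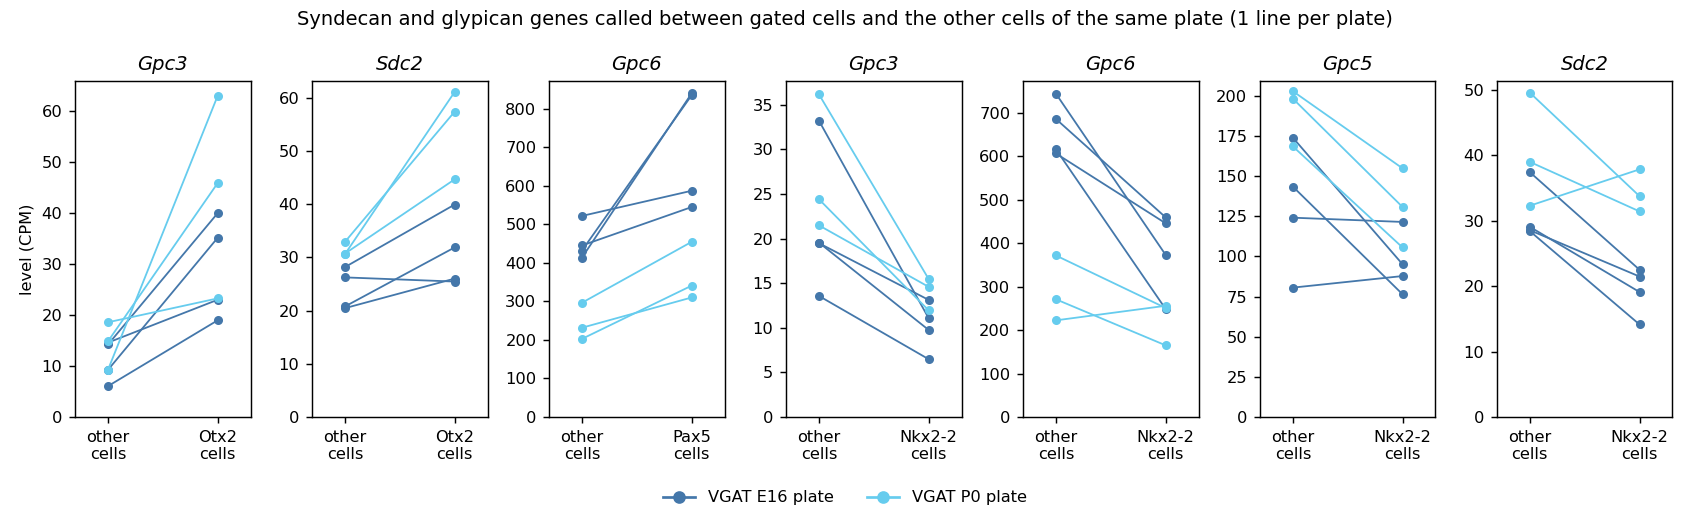
CPM of the members called between cells with and without a count of Pax5, Otx2 or Nkx2-2, 1 line per VGAT plate, from counts summed over the cells of each side. Gpc3 is higher in the Otx2 cells and lower in the Nkx2-2 cells on 7 of 7 plates, and Gpc6 is higher in the Pax5 cells on 7 of 7 plates.

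Some genes of the chain pathway passed in the same gates. Only those that went the same way on every plate used are named here, so that agreement is not a result. In the Otx2 cells 6 of 26 synthesis genes passed, 4 higher and 2 lower, beside 4.54% of all genes. Among them were Hs3st3b1 (log2 fold change 2.09, SE 0.28, at 7.84 to 19.4 CPM with and 1.12 to 6.91 CPM without Otx2), Ndst3 (1.15, SE 0.15), Hs3st5 (0.98, SE 0.10) and the polymerase Ext1 (0.41, SE 0.09), all higher, and Ndst4 (-0.90, SE 0.15), which was lower. Ptch1, the Hedgehog receptor, rose by 0.62 (SE 0.11) with Otx2, and the synaptic Lrrtm3 fell by 0.66 (SE 0.12), among 4 of 18 partners that passed. In the Nkx2-2 cells, where 3.28% of all genes passed, 3 of 28 synthesis genes did, all lower: Hs3st2 (-1.17, SE 0.25), Hs3st1 (-1.03, SE 0.24) and the epimerase Glce (-0.51, SE 0.12). Lrrtm3 fell there by 1.00 (SE 0.11), and Nxn by 0.44 (SE 0.10), the 2 of 18 partners that passed.

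In the Pax5 cells, where 2.87% of all genes passed, 4 of 27 synthesis genes did, 2 higher and 2 lower. Hs3st4 (0.83, SE 0.08) and the 6-O-sulfatase Sulf2 (0.51, SE 0.07) were higher and Ndst3 (-0.76, SE 0.15) was lower. Of 6 other cores 2 passed, 1 higher and 1 lower. Gpld1, a phospholipase that can release glypicans from their anchor, was at 2.77 to 6.85 CPM in the Pax5 cells and at 7.31 to 14.4 CPM in the others (-1.12, SE 0.28), the 1 of 18 partners that passed. In the Six3 cells 2 of 26 synthesis genes, 1 of 6 other cores and 1 of 18 partners passed, beside 0.790% of all genes. These cells had more Nrp1 (0.75, SE 0.07) and less Ptprd (-0.31, SE 0.06). The Dlx1 cells had less Ndst3 (-0.80, SE 0.15) and Hs6st3 (-0.57, SE 0.11), 2 of 26 synthesis genes beside 0.917% of all genes. The Lamp5 cells had less Hs3st4 (-1.09, SE 0.12) and more Hs6st2 (0.95, SE 0.12), 2 of 24 synthesis genes beside 0.856% of all genes. Ndst3 was thus higher in the Otx2 cells and lower in the Pax5 and Dlx1 cells, each against the other cells of the same plates.

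Whether pairs of members were found in the same cells was tested on the 7 VGAT plates after thinning (two-sided exact sign-flip test over plates, Benjamini-Hochberg over 42 of 45 pairs that could be tested). No pair passed, and 7 plates allow no p under 0.0156. A small number of pairs at that p cannot pass after adjustment, so the lack of a call says little about co-detection. That smallest p was reached by 2 pairs. Sdc2 was found in 11.9% of cells with Gpc1 and 10.2% of cells without it, a difference of 1.65 percentage points that was positive on 7 of 7 plates (exact p = 0.0156, adjusted p = 0.328). Sdc3 was found in 70.7% of cells with Gpc6 and 77.0% of cells without it, -6.28 points and negative on 7 of 7 plates (exact p = 0.0156, adjusted p = 0.328). Without thinning the second difference turned to 4.76 points.

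The genes whose levels ran most like those of the members over the 9 plates are given as a description (Pearson's r of log2 CPM among 14623 other genes, with plates that share sort, stage and depth). For Sdc2 these were Sez6l (0.99) and Ret (0.99), a receptor of GDNF-family ligands. For Gpc3 they were Sema3c (0.99), a secreted semaphorin, and Grm5 (0.98), a glutamate receptor. Gpc5 ran with Gabrg1 (0.98), a GABA receptor subunit, and Cntnap5c (0.98), Gpc6 with Cfl2 (0.98) and Myo9a (0.97), and Sdc3 with Hpca (0.98) and Mmd2 (0.98). Gpc4 ran with Gm47757 (0.98) and Sox1ot (0.98), Gpc1 with Dppa5a (0.98) and Kif14 (0.97), Sdc1 with Ubqln4 (0.96) and Klf15 (0.95), and Gpc2 with its overlapping partner Gm43720 (1.00) and Baz1b (0.97).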

How the data were processed

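Single-cell RNA sequencing (SORT-seq) was done on 9 plates, and the plates were grouped by sort and stage from the first plate label in the cell names, which matches the sample titles. The authors discarded reads lacking a cell barcode, trimmed the rest, aligned them to the mouse genome (STAR and mm10 in the submitters' processing notes) and counted molecules in exons, and in exons with introns, for each well. What the authors deposited are expected counts, in which the number of distinct UMIs is corrected for UMIs that coincide, and which are not scaled to depth. With a UMI of 6 bases, as in the labels (the methods text gives another length), this correction gives every non-zero value (100%) within 0.001, and 51.4% of these values were not whole.

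Wells were filtered as stated in the report, and 92 spike-in (ERCC) and 34 mitochondrial entries were dropped afterwards. Upper limits on ribosomal protein (20%) and ERCC counts (30%) removed no further well. No doublet caller was run. Cells over 2 times the median count of their plate were left out in an alternative. Expected counts were summed per plate, or per plate and gate, rounded after summing, and compared by the quasi-likelihood F test of edgeR 4.0.16 (limma 3.58.1, R 4.3.3), with TMM factors, genes kept by filterByExpr, and p-values adjusted over all genes tested by the Benjamini-Hochberg method at a threshold of 0.05. SE was taken as the log2 fold change over the square root of F. Levels of members and list genes are TMM-scaled CPM, and those of markers, of 3 counts and of cells split by Slc6a3 are plain CPM. Gates used plates with at least 5 cells on each side. Tables and figures were made in Python 3.11.15 with pandas 2.3.3, numpy 2.4.6, matplotlib 3.10.9 and scipy 1.17.1. The population, stage, interaction and Six3 fits with edgeR and the co-detection test were tested on simulated data.

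The members and the lists of synthesis, core and partner genes were chosen with earlier results of these data known. Named are all members and, per list and comparison, at most the 6 genes with the largest log2 fold change among those past the threshold whose plates do not overlap or, for gates, go the same way on every plate. Alternatives were DESeq2 1.42.0, RLE factors, spliced counts, fits without the filter on low genes, other limits on cells, depths and gates, each plate left out, the replicate number as a block, and 2 handlings of the second plate label that were added after seeing the data. Counting intervals cover counting error only.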

Additional observations from a re-analysis of the deposited data

Results flagged for a closer look

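Among 74 sets of plate values of the members, 11 had 1 plate far from the others of its group. The sets share genes, plates and cells, so no chance rate is set beside this count. Among the VGAT E16 plates, Sdc3 was detected in 74.6% of thinned cells of replicate 2, against 66.7% to 67.2% on the other plates. Gpc2 was at 148 CPM on replicate 1, against 103 to 107 CPM, and in 47.5% of its cells, against 34.6% to 35.2%. Sdc4 was at 0.197 CPM on replicate 4, where 0.341% of thinned cells held it, and at 0 on the other plates, which is 1 count.

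In the gates, the log2 ratio of CPM + 1 between cells with and without the gate gene stood apart on 1 plate for 6 members and gates. For Gpc5 in Six3 cells it was 1.58 on VGAT E16 replicate 1, against -0.80 to -0.07 on the others. For Gpc5 in Pax5 cells it was -2.45 on VGAT P0 replicate 1, the plate with 44 cells, against -0.15 to 1.01. For Gpc1 it was -0.43 in Pax5 cells of VGAT E16 replicate 1 (others -0.01 to 0.24) and -0.64 in Otx2 cells of VGAT E16 replicate 2 (others -0.04 to 0.26). For Gpc4 in Otx2 cells it was -2.85 on VGAT P0 replicate 3, where no Otx2 cell had a count, against 0.65 to 2.43, and for Sdc3 in Dlx1 cells it was 0.35 on VGAT E16 replicate 3, against -0.14 to -0.01.

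In 2 cases the plates of one stage went one way and those of the other stage the opposite way, and neither difference was tested. Gpc1 in Pax5 cells had a mean log2 ratio of -0.11 at E16 and 0.24 at P0, a difference of 0.35. Gpc5 in Slc6a3-rich against Slc6a3-poor cells had a log2 ratio of -1.56 on the VGAT+Pitx3 E16 plate and 1.5 on the P0 plate, a difference of 3.06.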

How the results depend on the processing

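Between the sorts, 5 members were called in the reported fit and 3 in spliced counts. Of the uncalled members, Gpc1 lay between -0.38 and 0.28 as single plates were left out, and Gpc2 between -0.21 and 0.35, and Gpc2 was at -0.018 without the 4 plates whose labels differ in stage. Between the stages, the 2 calls became 5 without the filter on low counts, 4 with DESeq2, 0 with the stage of the second label, and 1 to 3 as single plates were left out. With the second label the stage differences turned for Sdc2 (-0.25), Sdc3 (-0.065), Gpc2 (0.016), Gpc4 (-0.11), Gpc5 (-0.031) and Gpc6 (0.43), and the interaction of Gpc6 to -0.48. Gpc4 was at -0.017 without cells with 3 or more non-neuronal marker genes and between -0.020 and 0.46 as single plates were left out, and Gpc1 between -0.043 and 0.41. The 4 Nkx2-2 calls became 1 in spliced counts and 2 to 3 as single plates were left out. The 2 Otx2 calls became 1 with DESeq2, 6 without the filter, 5 with at least 2 counts of the gate gene and 1 to 2 as single plates were left out. Without the filter 1 member was called in the Dlx1 and 1 in the Lamp5 cells, against 0. The causes were not tested. Over all genes, the stage calls went from 624 to 1588 without the filter, 944 with DESeq2, 1 with the second label and 76 to 265 without VGAT E16 replicate 1, 3 or 4 or VGAT P0 replicate 2 or 3, and the population calls from 1306 to 625 or 866 without 1 VGAT+Pitx3 plate, where the plate left is assumed to vary like the VGAT plates. No pair was called in co-detection in any setting, but with so few plates the test could hardly call one.

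The same replicate numbers do not mark shared animals or days in the labels, and plates with the same number deviated together only weakly (r = 0.039, 0.069 and 0.051), with E16 replicate 1 closer to P0 replicate 3 (0.048). With the replicate number as a block, the stage calls went from 2 to 1 of the members and from 624 to 210 of all genes, and the population difference of Gpc2 to -0.037. Without the plate as a block, the Pax5 calls went from 1 to 0, the Otx2 calls from 2 to 1 and the Nkx2-2 calls from 4 to 0.

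Recomputed fold changes were tallied for the members tested between sorts and stages, for Gpc6 in the interaction and for members called in the gates. Of these, 377 kept their direction and side of the threshold, 41 fell under it, 9 rose past it and 16 turned. Members not called in the gates are outside this tally, and some of them rose past the threshold or turned. Taking the sort as well as the stage from the second label was not run, since the sample labels do not explain its letters, and the interaction could not be fitted without either VGAT+Pitx3 plate. Levels at or under 0.555 to 2.09 CPM, which are 3 counts on a plate, are not resolved, which covers Sdc4 on every plate and Gpc3 and Gpc4 on the VGAT+Pitx3 P0 plate.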
